A study of Homo sapiens with 4 samples.

Results

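The 10 genes of nucleotide excision repair followed here, across 4 RNA-seq libraries of the established bladder cancer line UM-UC-3 (human), were ERCC1, ERCC2, ERCC3, ERCC4, ERCC5, ERCC6, ERCC8, XPA, XPC and DDB2. They were chosen by name around ERCC1 and ERCC4. The study's authors had already reported both as lowered by hnRNPK knockdown, starting from this RNA-seq. Counts of the 10 genes in the si-hnRNPK library are therefore not those of an unselected list. All 10 were found by Ensembl identifier in each of the 4 deposited tables, which together list 27629 identifiers. Each library came from cells collected 48 h after transfection with 75 nM siRNA, and each condition is 1 library: a control siRNA, si-hnRNPK (a mixture of 2 siRNAs), a library labelled si-lncRNA-LBCS (2 siRNAs) and si-PTBP1 (2 siRNAs). All 4 cultures were therefore transfected, no untreated culture was analysed here, and the 3 knockdown libraries are compared with the same control library. No DNA-damaging agent is named for these cultures, and whether a damage response was present in any of them was not tested.

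Nucleotide excision repair removes bulky lesions that bend the DNA helix, such as UV photoproducts and cisplatin adducts, the latter made by a drug used against bladder cancer. Lesions are found either anywhere in the genome by XPC and DDB2, or by a stalled RNA polymerase with the help of ERCC6 and ERCC8. The helicases ERCC3 and ERCC2 of the TFIIH complex then open the helix, XPA checks the lesion and anchors the machinery, the nuclease ERCC5 cuts on the 3′ side, and the ERCC4-ERCC1 nuclease cuts on the 5′ side. Polymerases and ligases that also serve DNA replication fill the gap.

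The libraries held between 54301152 (si-hnRNPK) and 70232674 (si-lncRNA-LBCS) reads on listed genes, at which 3 reads are worth 0.0427 to 0.0552 CPM (read counts divided by the library's size). HNRNPK, the targeted RNA-binding protein, was at 783.1 CPM with the control siRNA and 187.8 CPM with si-hnRNPK, or 24.0% of control. PTBP1, a splicing repressor, was at 280.0 CPM with the control siRNA and 89.7 CPM with si-PTBP1, or 32.0% of control. Both siRNAs labelled as directed at lncRNA-LBCS match AL022068.1 (ENSG00000228412). Its reads numbered 110 with the control siRNA and 103 there, or 81.8% of control with a counting interval of 61.9% to 108.0%. That interval includes no change, so the label of that library could not be checked by its target. AL022068.1 was at 1.79 CPM with the control siRNA, 1.47 with si-lncRNA-LBCS, 3.43 with si-hnRNPK and 3.82 with si-PTBP1. Of 16 urothelial or epithelial markers 5 to 6 reached 1 CPM in each library, led by KRT8 and KRT18, and their summed level was 157.4 to 220.5 CPM. KRT7, PPARG and FOXA1 were also above 1 CPM in every library, while KRT5, KRT19, KRT20, UPK1A, UPK1B, UPK2 and GATA3 were under 1 CPM wherever listed. TP63, a basal urothelial marker, was at 0.342 CPM with the control siRNA and 0.513 with si-lncRNA-LBCS, and rose by 1.38 on the log2 scale with si-hnRNPK and by 1.33, to 2.37 CPM, with si-PTBP1. The part of this shift in the results was not tested. The highest white blood cell marker was ITGAM, at 2.78 CPM in the si-hnRNPK library.

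ERCC4 was the 1 gene of the 10 that passed the threshold of a 2-fold change in any comparison, and it fell in the si-hnRNPK library. The threshold is a difference of 1 in log2(CPM + 1), on which low genes appear to change less than they do, and genes were tested at 1 CPM or more in either library. In that comparison 3.93% of 13672 tested genes were lowered and 3.55% were raised. Of the 10 genes 9 were below the control level in the si-hnRNPK library, where 58.4% of all tested genes were lower, and XPA was above it. The median change of the 10 genes was -0.47, against -0.11 for all tested genes. At a threshold of 1.5-fold ERCC4, ERCC3, XPC, ERCC8 and ERCC1 were lowered, which is 5 of 10 against 15.8% of all tested genes, and 0 were raised, against 9.89%. Under median-of-ratios scaling at the same threshold, a combination chosen after seeing the data, ERCC4 and ERCC3 were the genes lowered, and 12.1% of 13759 tested genes were lowered and 13.1% raised.

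**Figure D1:**
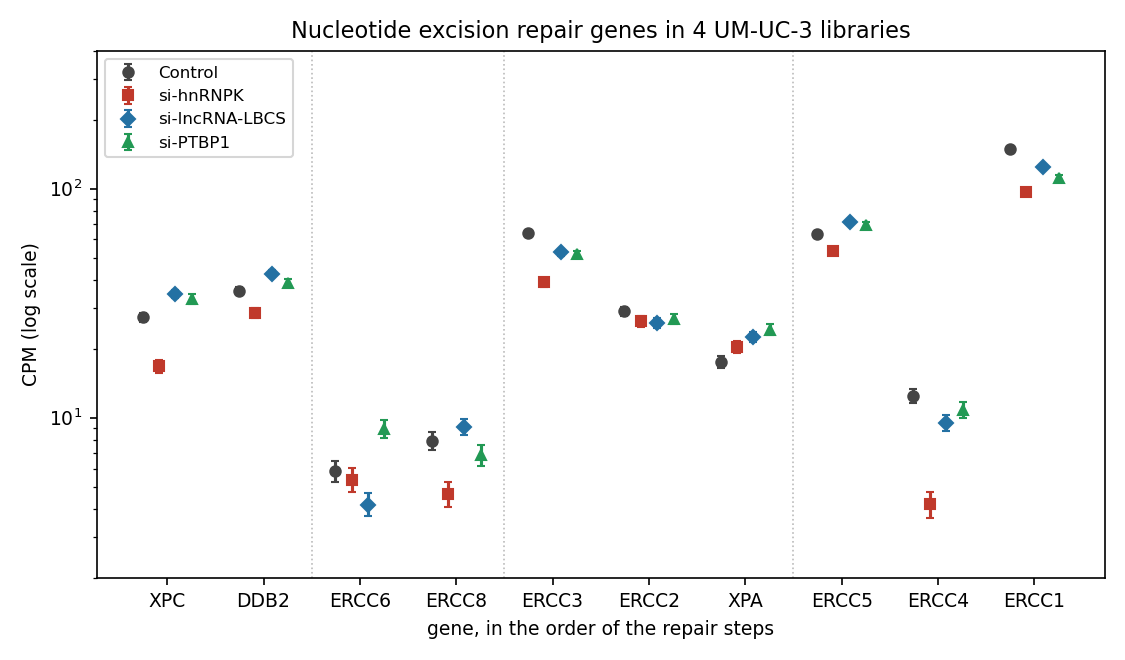
Level of each of the 10 genes in CPM (log scale) in the control (circles), si-hnRNPK (squares), si-lncRNA-LBCS (diamonds) and si-PTBP1 (triangles) libraries. Bars are 95% exact Poisson intervals of the reads of 1 library and cover counting error only, and dotted lines separate recognition, transcription-coupled recognition, opening and incision. ERCC4 stands at 4.18 CPM in the si-hnRNPK library and at 9.50 to 12.5 CPM in the other libraries.

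The nuclease that makes the 5′ cut held the gene that moved most. ERCC4 (XPF, ENSG00000175595, chromosome 16 from 13920157 to 13952345, plus strand, GRCh38) encodes its catalytic subunit. Its reads were 766 for the control siRNA, 227 for si-hnRNPK, 667 for si-lncRNA-LBCS and 609 for si-PTBP1. The si-hnRNPK library was low, also per read sequenced, and the other 3 lay closer to each other than to it. ERCC4 fell to 33.5% of control in the si-hnRNPK library (95% interval 28.8% to 38.9%, exact Clopper-Pearson interval of the reads of both libraries, counting error only). Among all tested genes 0.81% had a change as low or lower. The antisense gene AC010401.1, which overlaps 25.7% of the ERCC4 exon bases, was at 0.242 CPM or less in every library.

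ERCC1 (ENSG00000012061, chromosome 19 from 45407333 to 45478828, minus strand) encodes the partner without which the ERCC4 protein is unstable. It had 9143, 5230, 8711 and 6244 reads in the control, si-hnRNPK, si-lncRNA-LBCS and si-PTBP1 libraries. The control library was the highest in CPM and the si-hnRNPK library the lowest. Its change was -0.62 (-0.67 to -0.58) with si-hnRNPK, short of the threshold, -0.26 with si-lncRNA-LBCS and -0.42 with si-PTBP1. In the si-PTBP1 library this was the lowest change of the 10 genes, with 6.84% of all tested genes at or below it. CD3EAP overlaps 28.6% of the ERCC1 exon bases on the opposite strand and was at 8.16 to 10.8 CPM.

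The ratio of the 2 subunits does not depend on the scaling between libraries. Per 100 reads of ERCC1 there were 8.38 reads of ERCC4 (95% interval 7.77 to 9.02) in the control library and 4.34 (3.78 to 4.96) in the si-hnRNPK library. The libraries labelled si-lncRNA-LBCS and si-PTBP1 had 7.66 (7.07 to 8.29) and 9.75 (8.96 to 10.6). The 2 mRNAs of the nuclease thus went out of their control proportion in the si-hnRNPK library, with an interval apart from those of the other 3 libraries.

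ERCC5 (XPG, ENSG00000134899, chromosome 13 from 102807146 to 102876001, plus strand), which makes the 3′ cut, was at 63.2, 53.2, 71.6 and 69.5 CPM in the control, si-hnRNPK, si-lncRNA-LBCS and si-PTBP1 libraries. It was below control with si-hnRNPK (-0.24) and above it in both other knockdown libraries (0.18 and 0.14). Its exons share 63.2% of their bases with the readthrough gene BIVM-ERCC5, which was not analysed here, and 19.1% with BIVM, so its reads could be split between them.

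In the recognition of lesions across the genome, XPC (ENSG00000154767, chromosome 3 from 14145147 to 14178783, minus strand) had 1685, 913, 2429 and 1849 reads in the control, si-hnRNPK, si-lncRNA-LBCS and si-PTBP1 libraries. It was lower than control with si-hnRNPK alone, by -0.68 (-0.79 to -0.56) on the log2 scale, and higher in the libraries labelled si-lncRNA-LBCS (0.32) and si-PTBP1 (0.26). XPC binds DNA opposite the lesion together with RAD23B. Per 100 reads of RAD23B there were 9.96 reads of XPC in the control library, 5.76 with si-hnRNPK, 11.9 with si-lncRNA-LBCS and 12.3 with si-PTBP1. LSM3, which overlaps 6.63% of the XPC exon bases on the opposite strand, was at 71.4, 47.8, 80.6 and 22.9 CPM in the same order, and the strand of the counting was not given in the sources used here.

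DDB2 (ENSG00000134574, chromosome 11 from 47214465 to 47239240, plus strand) is the subunit that recognises UV lesions and hands them to XPC, and is a p53 target gene. It was at 35.8 CPM in the control library, 28.6 with si-hnRNPK, 42.5 with si-lncRNA-LBCS and 38.7 with si-PTBP1. The order of the 4 libraries was the same as for XPC. The changes were -0.31, 0.24 and 0.11, and the last became -0.01 under median-of-ratios scaling. Over 19 tested p53 target genes 1 was lowered and 2 were raised with si-hnRNPK, with a median of 0.20. Of all tested genes 3.93% were lowered and 3.55% raised in that comparison, with a median of -0.11.

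Transcription-coupled recognition was carried by the 2 genes with the fewest reads in the control library. ERCC6 (CSB, ENSG00000225830, chromosome 10 from 49455368 to 49539538, minus strand), an ATPase that acts at the stalled polymerase, had 359, 291, 293 and 501 reads in the control, si-hnRNPK, si-lncRNA-LBCS and si-PTBP1 libraries. It was the 1 gene whose counting interval in the si-hnRNPK library included no change (-0.11, -0.30 to 0.09). The library labelled si-lncRNA-LBCS was lower than control (-0.41, -0.59 to -0.22) and the si-PTBP1 library was higher (0.54, 0.36 to 0.71), which were the lowest and highest values of the 10 genes in those comparisons.

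ERCC8 (CSA, ENSG00000049167, chromosome 5 from 60873831 to 60945073, minus strand), the substrate receptor of a ubiquitin ligase recruited by ERCC6, had 487, 252, 640 and 384 reads in the same order. The si-hnRNPK library was at 58.5% of control, with an upper counting bound of 68.2%, and the library labelled si-lncRNA-LBCS at 114.8%. Their proportion also shifted between libraries. There were 135.7 reads of ERCC8 per 100 of ERCC6 in the control library, 86.6 with si-hnRNPK, 218.4 with si-lncRNA-LBCS and 76.6 with si-PTBP1. These are reads not corrected for length, and ERCC6 has 16737 annotated exon bases against 5448 of ERCC8. Per kb of exons ERCC8 was above ERCC6 in every library, at 0.85 against 0.32 CPM with si-hnRNPK and 1.26 against 0.53 with si-PTBP1.

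Of the TFIIH helicases, ERCC3 (XPB, ENSG00000163161, chromosome 2 from 127257290 to 127294176, minus strand) was at 63.8, 39.0, 52.7 and 51.7 CPM in the control, si-hnRNPK, si-lncRNA-LBCS and si-PTBP1 libraries. Its change with si-hnRNPK was -0.70 (-0.77 to -0.62), close to those of XPC and ERCC8. ERCC2 (XPD, ENSG00000104884, chromosome 19 from 45349837 to 45370918, minus strand), the other helicase of the same complex, was at 29.2, 26.4, 25.9 and 26.9 CPM. Both were highest in the control library, but in ERCC2 the 3 knockdown libraries lay within 25.9 to 26.9 CPM. Reads of ERCC3 per 100 of ERCC2 were 218.8 (206.8 to 231.5) in the control library and 148.0 (138.3 to 158.4) with si-hnRNPK, and 203.6 and 192.3 in the other 2.

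XPA (ENSG00000136936, chromosome 9 from 97674909 to 97697357, minus strand), a scaffold that binds the damaged site, TFIIH and ERCC1, was at 17.4 CPM in the control library, 20.3 with si-hnRNPK, 22.5 with si-lncRNA-LBCS and 24.2 with si-PTBP1. The control library was the lowest of the 4. The changes of 0.21 (0.09 to 0.33), 0.35 and 0.45 stayed short of the threshold. Reads of XPA per 100 of its partner ERCC1 were 11.7 in the control library and 18.1 to 21.8 in the 3 knockdown libraries. Against the geometric mean of the 3 other libraries the change of XPA with si-hnRNPK was -0.06, which has the opposite sign.

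**Figure D2:**
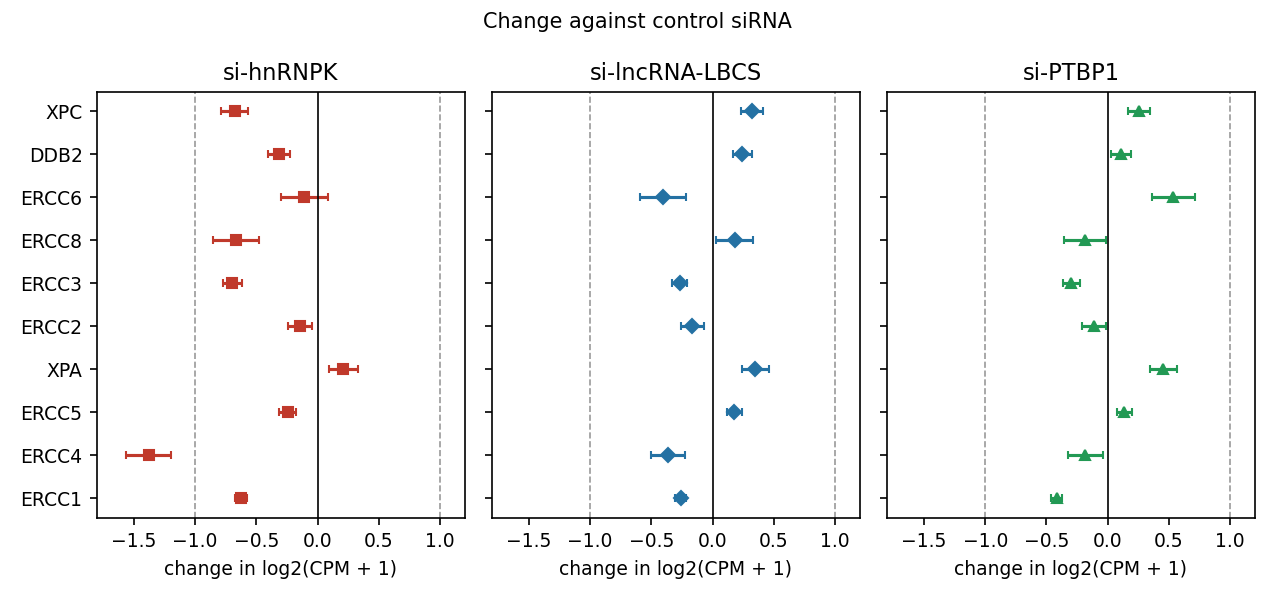
Change of each of the 10 genes against the control library in log2(CPM + 1), 1 panel per knockdown library. Bars are 95% exact Clopper-Pearson intervals for counting error, and dashed lines mark the 2-fold threshold. ERCC4 in the si-hnRNPK panel, at -1.38, is the 1 point beyond a dashed line.

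The other 2 comparisons gave no member past the threshold. With si-lncRNA-LBCS 1.01% of 13492 tested genes were lowered and 0.378% raised, and with si-PTBP1 0.613% of 13855 were lowered and 2.92% raised. At 1.5-fold again 0 of the 10 genes passed, where 5.74% of tested genes were lowered and 4.14% raised with si-lncRNA-LBCS, and 3.12% lowered and 12.1% raised with si-PTBP1. With si-lncRNA-LBCS 5 genes were below control and 5 above it, between -0.41 and 0.35, as 51.8% and 48.2% of all tested genes were. The median of the 10 genes was 0.01, against -0.01 for all tested genes. With si-PTBP1 there were again 5 below and 5 above, between -0.42 and 0.54, where 36.5% of all tested genes were below and 63.5% above. The median was 0.00, against 0.12 for all tested genes. Both comparisons, and that with si-hnRNPK, share the control library, so a deviation of that 1 library would enter all of them.

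For some of these differences the counting interval came close to no change, such as those of ERCC8 and ERCC2 with si-PTBP1 (-0.19, -0.36 to -0.01, and -0.11, -0.21 to -0.02). The interval left out no change for 9 of the 10 genes with si-hnRNPK and for all 10 in each of the other comparisons, where it did so for 80.3%, 72.2% and 75.1% of all tested genes. An interval of this kind compares 2 libraries and not 2 conditions. The spread between cultures is unknown, since there were no replicates.

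The scale of the libraries was set by all reads. Median-of-ratios scaling over 12362 genes gave log2 factors of -0.11 for the si-hnRNPK library and 0.13 for the si-PTBP1 library relative to control. CPM was divided by these factors, which raised changes with si-hnRNPK and lowered those with si-PTBP1. After that, with si-hnRNPK ERCC4 was at -1.29, ERCC3 at -0.59, ERCC8 and XPC at -0.57, ERCC1 at -0.51 and XPA at 0.32. ERCC2 and ERCC6 then lay at -0.03 and -0.01. With si-PTBP1, ERCC1 was at -0.54, ERCC3 at -0.42, ERCC6 at 0.42 and XPA at 0.33.

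**Figure D3:**
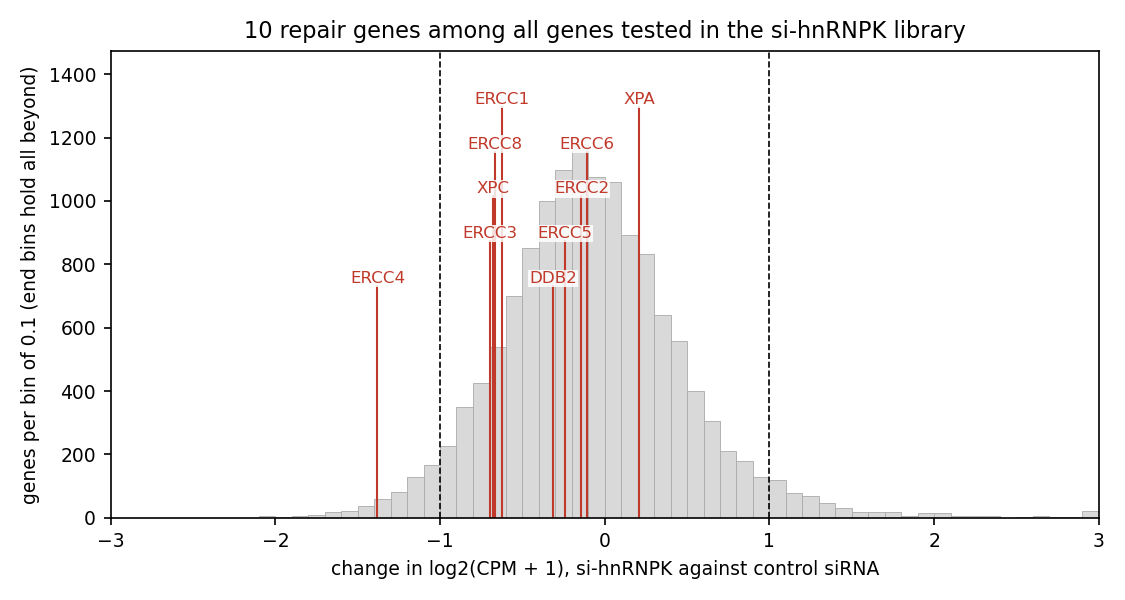
Distribution of the change in log2(CPM + 1) between the si-hnRNPK and control libraries over 13672 tested genes (grey bars, genes per bin of 0.1), with the 10 genes as labelled lines whose height carries no value. Dashed lines mark the 2-fold threshold, and ERCC4 is the 1 labelled gene outside them.

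Levels between genes were compared per kb of annotated exons, the union over the transcripts of a gene. In the control library ERCC1 had the highest level, at 26.7 CPM per kb, followed by XPA at 9.51, ERCC5 at 7.66, ERCC3 at 7.58, DDB2 at 7.31, XPC at 5.72 and ERCC2 at 4.52. ERCC4 and ERCC8 were at 1.48 and 1.46 CPM per kb, and ERCC6 was last at 0.35. The counting intervals of ERCC5 and ERCC3, of ERCC3 and DDB2 and of ERCC4 and ERCC8 overlapped, and those of the other neighbours did not. ERCC4 was below ERCC8, with intervals apart, in the si-hnRNPK library (0.49 against 0.85 CPM per kb) and with si-lncRNA-LBCS (1.12 against 1.67). XPC was below ERCC2 in the si-hnRNPK library, at 3.50 against 4.09. With the length of the longest transcript instead, XPA was the fifth in the control library and ERCC3 the second, while ERCC1 stayed first and ERCC6 last. ERCC4 was then below ERCC8 already in the control library, at 1.85 against 2.32 CPM per kb.

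The 40 other genes of the pathway were listed by role, and 38 were tested. With si-hnRNPK 3 of them were lowered and none was raised at the threshold, and 29 were lower and 9 higher than control, with a median of -0.33. Over all tested genes 3.93% were lowered, 3.55% raised and 58.4% lower at all, with a median of -0.11. Of the lowered genes POLE and POLE2 encode subunits of DNA polymerase epsilon, and LIG1 is the replicative ligase. LIG1 went from 130.0 to 50.6 CPM (-1.34), POLE from 111.7 to 53.1 CPM (-1.06) and POLE2 from 49.2 to 23.1 CPM (-1.06). Under median-of-ratios scaling LIG1 was the 1 gene of the 3 still past the threshold. RFC5, a subunit of the clamp loader, was at 106.0 and 52.6 CPM, or 49.6% of control, which is short of the threshold through the pseudocount of 1. With a pseudocount of 0.1 the count was 4.

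By step, the 18 gap filling and ligation genes had a median change of -0.51 with si-hnRNPK, and 17 of 18 were lower than control. Of all tested genes 58.4% were lower in that comparison. The 7 other genes of global recognition had a median of -0.09, the 4 of transcription-coupled recognition -0.42, and the 9 of opening and verification -0.26. The highest changes were those of GTF2H3, a TFIIH subunit (38.7 to 59.0 CPM, 0.60), and CETN2, a partner of XPC (64.8 to 96.6 CPM, 0.57). So CETN2 was higher and XPC lower in the same library.

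Genes of S phase moved with the si-hnRNPK library: 18 of 42 tested S phase genes were lowered, 41 were lower than control, and the median was -0.84. The shares of all tested genes were 3.93% lowered and 58.4% lower at all, with a median of -0.11. With si-lncRNA-LBCS and with si-PTBP1 0 were lowered, and the medians were -0.09 and -0.22. Without the genes that the S phase list also holds, 34 other pathway genes had a median of -0.26 with si-hnRNPK. The 3 lowered genes, LIG1, POLE and POLE2, are not on that list, so leaving out its genes could not change their number. That count therefore does not set them apart from S phase. The part of the cell cycle in the level of ERCC4 or of the other 9 genes was not tested, and in a bulk library fewer cells in a phase and less RNA per cell cannot be told apart.

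In the library labelled si-lncRNA-LBCS 0 of 38 other pathway genes passed the threshold. The lowest were RPA1, which coats single-stranded DNA (56.2 to 30.9 CPM, -0.84), and XAB2, a partner of XPA (22.6 to 14.1 CPM, -0.64). RPA3 (0.52) and POLD4 (0.44) were the highest. With si-PTBP1 again 0 of 38 passed. RPA2 (-0.61) and POLE3 (-0.54) were the lowest, and POLD4, a subunit of polymerase delta, went from 4.37 to 9.45 CPM (0.96), past the threshold with a pseudocount of 0.1. Medians were -0.02 and -0.03 in these comparisons.

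**Figure D4:**
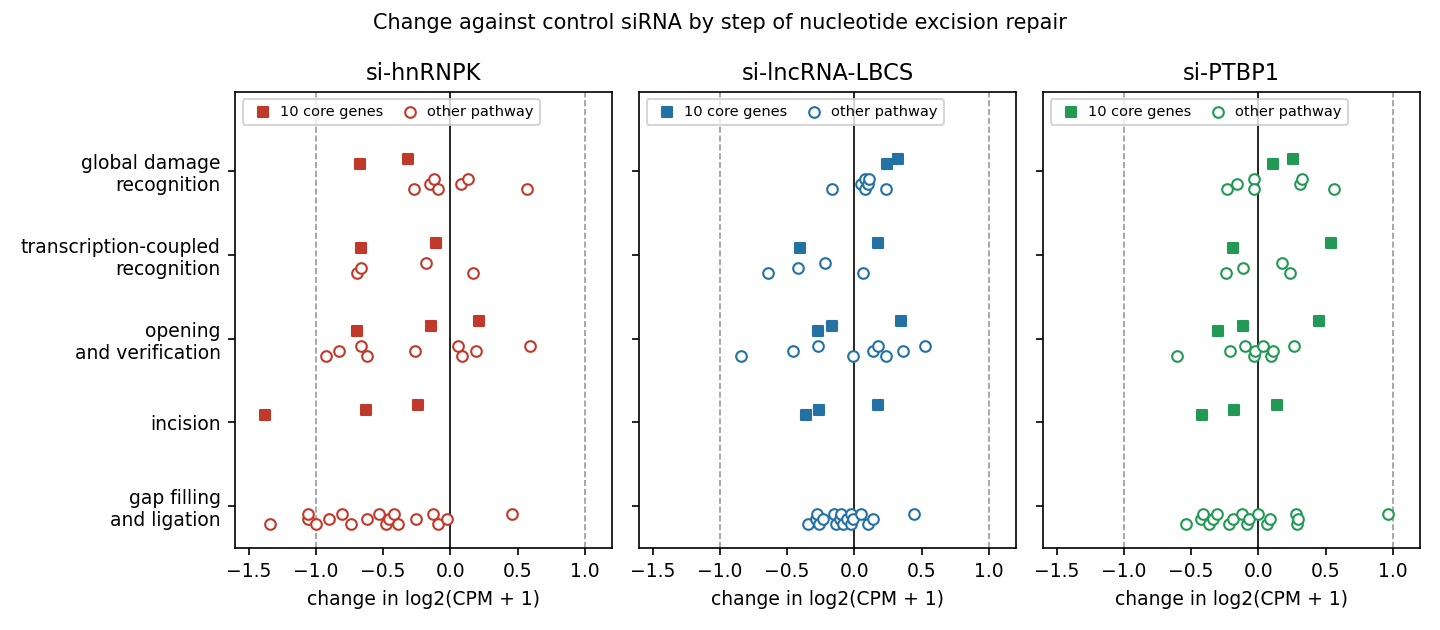
Change against the control library in log2(CPM + 1) by step of nucleotide excision repair, 1 panel per knockdown library, with the 10 genes as filled squares and the other tested genes of the pathway as open circles. Points are spread vertically for sight only, and dashed lines mark the 2-fold threshold. In the si-hnRNPK panel the points beyond it are ERCC4 at the incision step and LIG1, POLE and POLE2 at gap filling.

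Relatives of the repair nucleases and of ERCC6 were listed to see how their mRNAs compared with ERCC4, ERCC5 and ERCC6 themselves. With si-hnRNPK 3 of 11 were lowered and none was raised, with a median of -0.70. EXO1 and FEN1 among them are also on the S phase list, whose median was -0.84 in that comparison. The part of the cell cycle in these changes was not tested. Over all tested genes in that comparison 3.93% were lowered and 3.55% raised, with a median of -0.11. EME1, the partner of MUS81 in an ERCC4-family nuclease that cuts branched DNA, went from 13.8 to 4.51 CPM (-1.42), the change nearest to that of ERCC4 among these 11 genes. MUS81 itself was at 51.9 and 67.7 CPM (0.38). FANCM, a family member that remodels stalled forks, was at -0.99, its partner FAAP24 at -0.60 and EME2 at -0.05. SLX4, the scaffold that binds ERCC4, was at -0.63.

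Of the ERCC5 family, GEN1, which resolves Holliday junctions, went from 56.5 to 25.9 CPM (-1.10), while EXO1 and FEN1 were at -0.80 and -0.70, all 3 below the -0.24 of ERCC5. ERCC6L, a mitotic helicase related to ERCC6, went from 62.9 to 30.2 CPM (-1.03), and ERCC6L2 was at 0.17. In the libraries labelled si-lncRNA-LBCS and si-PTBP1 0 of the 11 passed the threshold, with medians of -0.06 and 0.03.

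EME1 also went out of proportion to its partner. Reads of EME1 per 100 of MUS81 were 26.5 (24.6 to 28.6) in the control library and 6.67 (5.83 to 7.59) with si-hnRNPK, and the other 2 libraries lay between these values. Reads of ERCC4 per 100 of EME1 were 90.5 (82.0 to 99.96) and 92.7 (77.0 to 111.4) in the control and si-hnRNPK libraries, whose counting intervals overlapped. With si-lncRNA-LBCS there were 81.3 (73.3 to 90.2) and with si-PTBP1 72.8 (65.5 to 81.0), the latter with an interval apart from that of the control library.

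**Figure D5:**
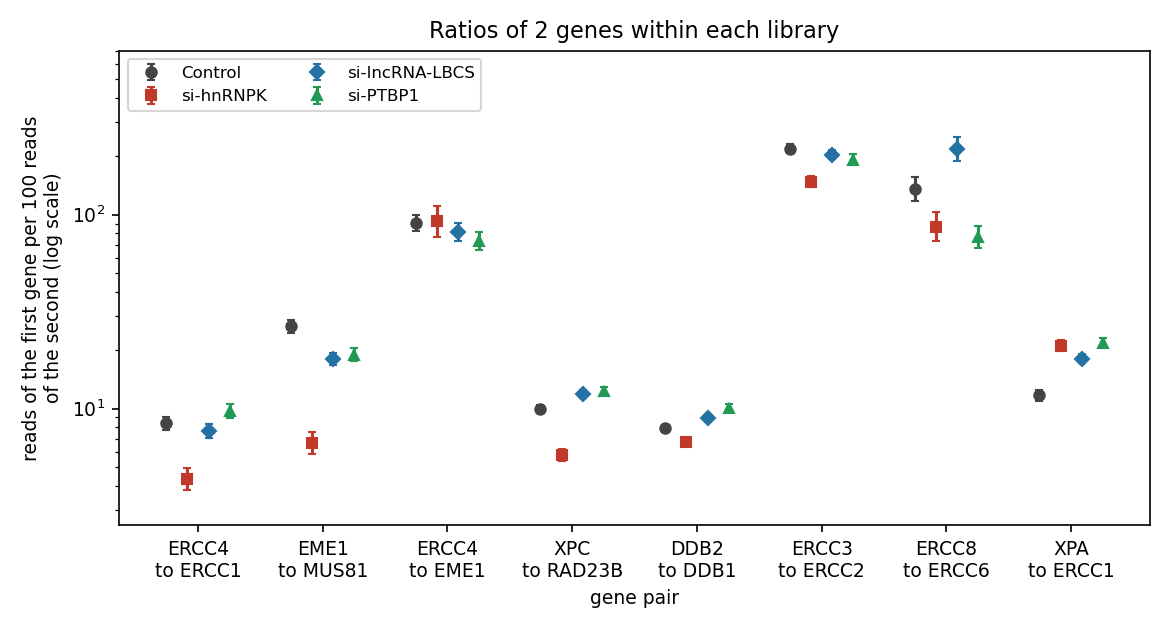
Reads of the first gene per 100 reads of the second (log scale) for 8 gene pairs in each of the 4 libraries. Bars are 95% exact intervals for counting error. ERCC4 to ERCC1 and EME1 to MUS81 are lowest in the si-hnRNPK library, at 4.34 and 6.67, while ERCC4 to EME1 is at 92.7 there, 90.5 in the control library, 81.3 with si-lncRNA-LBCS and 72.8 with si-PTBP1.

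The genes whose 3 changes lay nearest to those of ERCC4 were KMT5A, WDR76 and ATAD5, at Euclidean distances of 0.066, 0.097 and 0.10 among 10094 genes at 5 CPM or more in the control library. KMT5A was at 57.3, 21.3, 44.1 and 52.6 CPM in the control, si-hnRNPK, si-lncRNA-LBCS and si-PTBP1 libraries. Nearest to ERCC1 were MCM2, CHCHD4 and TOMM5, at 0.063, 0.064 and 0.068. Of these neighbours WDR76 and MCM2 are on the S phase list, and KMT5A, ATAD5, CHCHD4 and TOMM5 are not. Absence from that list does not place a gene outside the cell cycle. The distances rest on 4 libraries that share 1 control.

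The siRNAs can also lower mRNAs whose 3′ UTR pairs with bases 2 to 8 of the guide strand, so the sequences were compared with the 10 genes. The site of si-lncRNA-LBCS siRNA-1 occurs in 9.40% of 11569 genes tested with a 3′ UTR and in 0 of the 10 genes, and its strand is not shown. The other sense strands are shown with the 7 bases that match such a site in capitals.
Control siRNA: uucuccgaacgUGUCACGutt
si-hnRNPK siRNA-1: ggguuguagagUGCAUAAatt
si-hnRNPK siRNA-2: gccuccaucuaGAAGAGAutt
si-lncRNA-LBCS siRNA-2: ggugguagucaACACAAAutt
si-PTBP1 siRNA-1: gccucaacgucAAGUACAatt
si-PTBP1 siRNA-2: cccucauugacCUGCACAatt
The longest annotated 3′ UTR of ERCC4 (3998 bases), like that of ERCC1 (2342 bases), holds no match to the site of either si-hnRNPK siRNA. One of the 10 genes does, ERCC8, for siRNA-1, whose site occurs in 11.1% of 11703 genes tested with such a UTR, and that of siRNA-2 in 19.7%.

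All matched sites in the 10 genes are shown as DNA with 11 bases on each side and the match in capitals.
ERCC8, si-hnRNPK siRNA-1, base 147 of 783: aggttaatattTGCATAAaatcctaaaac
ERCC4, si-lncRNA-LBCS siRNA-2, base 1583 of 3998: tggatcatgtaACACAAAattgtcttcaa
ERCC6, si-lncRNA-LBCS siRNA-2, base 778 of 3447: cacatgcatgcACACAAAcatcactgcag
ERCC1, si-PTBP1 siRNA-2, base 2195 of 2342: agtgagcttatCTGCACActccaagttta
XPC, si-PTBP1 siRNA-1, base 551 of 794: agagagcagagAAGTACAggtcatctgct
ERCC6, si-PTBP1 siRNA-1, base 2253 of 3447: gttccacagctAAGTACAgccctaggttt
ERCC6, si-PTBP1 siRNA-2, base 2813 of 3447: tatagctctgcCTGCACAgaattgttgga
ERCC2, control siRNA, base 114 of 1792: acatttctcacTGTCACGtccacagcctt
The control siRNA was in the library that all comparisons share, and its site occurs in 3.20% of genes. ERCC4 and ERCC6, the genes with a match to si-lncRNA-LBCS siRNA-2 (18.2% of genes), had the lowest 2 changes of the 10 in that library, -0.36 and -0.41. They also have the longest 3′ UTRs of the 10, at 3998 and 3447 bases. Against the geometric mean of the 3 other libraries ERCC4 was at 0.16 and ERCC6 at -0.55. In the si-PTBP1 library ERCC1 was the lowest, at -0.42, but XPC (0.26) and ERCC6 (0.54), which also hold matches, were above control. A match is a description of the letters, and its part in these levels was not tested.

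The protein hnRNPK is known to bind runs of C in single-stranded DNA and RNA, so the promoters were searched for CCCC on both strands, overlapping copies included. The window ran from 250 bases before to 50 bases after the start in the RefSeq set (GRCh38.p14), in which 89.6% of 35116 promoters hold CCCC. All 9 other genes hold it in each of their promoters, with 2 to 13 copies, and that of ERCC4 holds 0, which says only that these letters are not in this window. By chromatin immunoprecipitation in UM-UC-3 cells, the study's authors reported less hnRNPK and less RNA polymerase II at the ERCC4 promoter after hnRNPK knockdown. They also reported lower ERCC4 mRNA by RT-qPCR in UM-UC-3 and T24 cells, with a matching change in protein. The sites they measured were not placed against this window here. The ERCC4 promoter, chr16:13919904-13920203 on the plus strand, is shown because ERCC4 was the gene past the threshold, with another repeated word, TTCGGC, in capitals.
ERCC4: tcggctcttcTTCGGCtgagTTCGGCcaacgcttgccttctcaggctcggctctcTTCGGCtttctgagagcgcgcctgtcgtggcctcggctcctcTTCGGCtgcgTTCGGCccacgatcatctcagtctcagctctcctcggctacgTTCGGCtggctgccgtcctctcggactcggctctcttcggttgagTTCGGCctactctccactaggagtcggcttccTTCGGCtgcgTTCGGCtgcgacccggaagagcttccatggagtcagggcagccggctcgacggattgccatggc
TTCGGC was chosen after its sequence was seen. It occurs 9 times in this window, all on the strand shown, which is the highest count of any of the 35116 promoters, while 7.22% of them hold it at all on either strand. Among the other 9 genes 1 promoter of ERCC1 holds it, 1 time.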

How the data were processed

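RNA-seq was performed on total RNA of UM-UC-3 cells (100-base paired-end reads), with 1 library per condition. The authors deposited 1 table of CPM per library by Ensembl identifier, that is, read counts divided by the size of the library. The submitters' processing notes name hg19, and the aligner, counter, annotation and strand are not given in the sources used here. All values of genes with reads were whole multiples of 1 read (100%, tolerance 0.01 read), which gave the reads. Symbols matched 25647 of 27629 identifiers. Gene positions, exons and 3′ UTRs are from GENCODE 29 on GRCh38, matched by identifier, and no deposited coordinates were used. Promoters are from RefSeq. GTF2H5 of the pathway list was not analysed here, and GTF2H4 was under 1 CPM.

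Changes are differences in log2(CPM + 1) against the control library for genes at 1 CPM or more in either library, called at a size of 1. With 1 library per condition no p-value for a condition was computed or used for a call, and an exact binomial test, which treats reads as replicates, was run as an alternative only. Intervals are at 95% and cover counting error only. The members and lists were chosen with earlier results of these data known. Named are the 10 genes, the siRNA targets, pathway genes past the threshold or with the 2 largest falls and rises of a comparison, all relatives, and the 3 genes nearest to ERCC4 and ERCC1; RFC5 and the markers were named after their values were seen. A gene that this rule names is not reported here. Alternatives were a pseudocount of 0.1, no filter or a filter of 5 CPM, a 1.5-fold threshold, median-of-ratios scaling, other reference libraries, that binomial test added to the threshold, and the longest transcript as length. The scripts were tested on simulated reads, which hold counting error only and no spread between cultures. Calculations ran in Python 3.11.15 with scipy 1.17.1, pandas 2.3.3, statsmodels 0.14.6, numpy 2.4.6 and matplotlib 3.10.9.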

Additional observations from a re-analysis of the deposited data

How the results depend on the processing

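ERCC4 in the si-hnRNPK library lay between -1.56 and -1.11 over all alternatives. At 1.5-fold, 5 of the 10 genes and 14 other pathway genes were lowered with si-hnRNPK and 1 raised, with 2 lowered with si-lncRNA-LBCS, and 1 lowered and 1 raised with si-PTBP1. With median-of-ratios scaling added, chosen after seeing the data, the si-hnRNPK counts were 2, 9 and 2 raised, with 2 lowered with si-lncRNA-LBCS, and 2 lowered and 1 raised with si-PTBP1. That scaling alone left 1 lowered pathway gene with si-hnRNPK and a median of the 10 genes of -0.12 with si-PTBP1. With a pseudocount of 0.1, 1 pathway gene (POLD4) was raised with si-PTBP1 and 4 were lowered with si-hnRNPK. Against the geometric mean of the 3 other libraries the medians were 0.14 with si-lncRNA-LBCS and 0.15 with si-PTBP1, and against the 2 other knockdown libraries 0.24 and 0.17. Under both references ERCC1, ERCC3 and ERCC4 changed sign with si-lncRNA-LBCS, XPA with si-hnRNPK and ERCC3 and ERCC4 with si-PTBP1. Against the 2 other knockdown libraries ERCC1, ERCC2 and ERCC8 also did so with si-PTBP1, where ERCC4 was at 0.69 and ERCC1 at 0.03. The filters changed no sign and no count of the 10 genes, and the binomial test removed no call. It treats reads as replicates and says nothing of stability, since 10872 of 13672, 9479 of 13492 and 10182 of 13855 genes passed it at a q of 0.05. The causes were not tested. No paired analysis was possible because each condition is 1 library.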
